A study of Mus musculus with 12 samples.

Results

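The Sec61 translocon and the TRAP complex were followed here through the mRNAs of 10 genes: Sec61a1, Sec61b and Sec61g for the channel, Sec62 and Sec63 for its auxiliary pair, Ssr1, Ssr2, Ssr3 and Ssr4 for TRAP, and Tram1. They were taken by symbol from a named list, not by their values, and all 10 were found among the 55416 gene identifiers of the count files and passed the filter on low counts, as did 16221 genes in all. The cells were mouse embryonic stem cells of the line E14Tg2a.4 whose ribosomal protein Rpl31 carries FLAG, a TEV site and an AviTag (Rpl31-FTA). In all 4 groups, plasmids for the N- and C-terminal fragments of ALIBi, a system that biotinylates the tagged ribosomes near a chosen site in the cell, were transfected. The groups are ER ribosome-bound (RNA eluted with ribosomes that were biotinylated at the endoplasmic reticulum, ER), cytosol ribosome-bound (the same with ALIBi in the cytosol), ER whole-cell and cytosol whole-cell (RNA of the lysates before purification), with 3 biological replicates in each and 12 libraries in all. Lysates contained cycloheximide, and no siRNA is a label of these libraries. The labels name neither the sequence that places ALIBi at the ER nor whether the tagged line is 1 clone, and they do not say that replicates came from separate cultures, and p-values therefore reflect only how far these libraries scatter.

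Proteins that are secreted, or that sit in the membranes of the secretory pathway, are recognised while they are being made and handed, ribosome included, to the Sec61 channel in the ER membrane. Sec61 alpha, from Sec61a1, forms the pore, and the small beta and gamma subunits, from Sec61b and Sec61g, are each held in the membrane by a single span close to the C-terminus. Sec62 and Sec63 assist the channel with some substrates, and Sec63 carries a J domain that recruits the luminal chaperone BiP. TRAP, the translocon-associated protein complex of the Ssr genes, binds next to the channel and helps some signal sequences to open it, and TRAM, from Tram1, contacts chains as they enter. All of these are ER membrane proteins themselves. Tail-anchored proteins, of which Sec61 beta is a textbook case, leave the ribosome before their membrane span is exposed and are inserted after translation, whereas proteins with an earlier signal are brought to the ER as nascent chains.

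Reads in genes numbered between 21.1 M and 26.9 M per library. The 10 genes together took 0.303% to 0.310% of them in ER ribosome-bound libraries, 0.104% to 0.106% in cytosol ribosome-bound libraries and 0.119% to 0.121% in whole-cell libraries of both kinds. Mitochondrially encoded genes, which are translated by other ribosomes, held 0.0329% to 0.0447% of the reads of ribosome-bound libraries and 1.86% to 1.94% of those of whole-cell libraries. The 8 stem cell markers (such as Pou5f1 and Sox2) summed to between 8236.5 and 13355.4 CPM (counts scaled to a common library total) in every library. The 6 fibroblast markers summed to 88.4 to 92.6 CPM in ER ribosome-bound libraries, 30.5 to 32.4 in cytosol ribosome-bound libraries and 35.0 to 37.6 in whole-cell libraries. Of these 6, Thy1 averaged 58.4 CPM in ER ribosome-bound and 16.1 in cytosol ribosome-bound libraries, Pdgfrb 18.7 in ER ribosome-bound and 11.4 in cytosol ribosome-bound, Col1a1 10.3 in ER ribosome-bound and 2.90 in cytosol ribosome-bound, and Col1a2 2.82 in ER ribosome-bound and 0.787 in cytosol ribosome-bound libraries. Lum and Col3a1 stayed at or below 0.0397 and 0.263 CPM in every library, and the part of the fibroblast markers in the results was not tested. Markers of endoderm (5), mesoderm (3) and neural cells (3) summed to at most 15.4, 20.3 and 18.6 CPM. No pair of replicates agreed within sampling noise, so each library counts as 1 replicate.

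The 10 mRNAs differ in where the first hydrophobic stretch of the encoded protein lies and in how much coding sequence follows it, so stretches of coding sequence from 7 of them are shown, read from the GENCODE M21 transcripts (GRCm38) from 5′ to 3′. Capitals mark the codons of the first hydrophobic segment, defined as a window of 19 residues with a mean Kyte-Doolittle hydropathy of at least 1.6. Sec61b (chromosome 4) and Sec61g (chromosome 11) are given over their whole coding sequence without the stop codon, because almost nothing follows the segment there.
Sec61b: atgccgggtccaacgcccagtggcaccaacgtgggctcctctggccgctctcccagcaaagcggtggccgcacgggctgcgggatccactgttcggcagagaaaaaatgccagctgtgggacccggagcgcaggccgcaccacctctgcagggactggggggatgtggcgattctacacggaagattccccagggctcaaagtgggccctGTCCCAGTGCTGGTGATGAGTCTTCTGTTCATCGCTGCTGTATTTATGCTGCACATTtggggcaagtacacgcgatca
Sec61g: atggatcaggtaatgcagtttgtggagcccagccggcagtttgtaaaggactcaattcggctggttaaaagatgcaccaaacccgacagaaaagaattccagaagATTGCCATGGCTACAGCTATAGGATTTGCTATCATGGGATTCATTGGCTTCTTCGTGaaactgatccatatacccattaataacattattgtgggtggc
Sec61a1, Ssr1 and Ssr2 (chromosomes 6, 13 and 3) are given from the start codon, and Sec62 and Ssr3 (both on chromosome 3) from 10 codons before the segment.
Sec61a1: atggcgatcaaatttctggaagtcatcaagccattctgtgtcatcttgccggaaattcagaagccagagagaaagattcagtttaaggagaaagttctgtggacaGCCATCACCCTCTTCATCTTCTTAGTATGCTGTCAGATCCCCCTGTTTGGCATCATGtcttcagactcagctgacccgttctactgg
Ssr1: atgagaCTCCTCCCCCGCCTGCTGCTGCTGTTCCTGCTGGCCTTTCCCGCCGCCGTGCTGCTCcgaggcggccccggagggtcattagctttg
Ssr2: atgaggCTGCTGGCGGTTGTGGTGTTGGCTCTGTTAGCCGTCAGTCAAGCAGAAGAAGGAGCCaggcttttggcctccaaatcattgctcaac
Sec62: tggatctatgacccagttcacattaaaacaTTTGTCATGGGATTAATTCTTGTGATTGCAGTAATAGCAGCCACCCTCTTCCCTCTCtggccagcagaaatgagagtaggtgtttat
Ssr3: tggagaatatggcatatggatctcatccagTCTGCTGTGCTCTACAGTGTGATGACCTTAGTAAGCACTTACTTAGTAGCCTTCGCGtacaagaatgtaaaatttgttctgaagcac
In Sec61b the segment spans codons 71 to 89 of 96 and leaves 7 codons, and in Sec61g it spans codons 36 to 54 of 68 and leaves 14. Sec61a1 has the segment at the same codons as Sec61g, 36 to 54, but 422 codons follow it. Ssr1, Ssr2 and Ssr4 have it at codons 3 to 21, where a cleaved signal sequence lies in such proteins, followed by 265, 162 and 151 codons. The first segment of Sec63 is at codons 16 to 34 and that of Tram1 at 26 to 44, with 726 and 330 codons after them. Sec62 and Ssr3 have theirs further in, at codons 197 to 215 and 58 to 76, and 183 and 109 codons follow.

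The first comparison asks which of these mRNAs were more abundant on ribosomes labelled at the ER than on ribosomes labelled in the cytosol. Of the 10 mRNAs, 8 were 2.82 to 4.82 times as high on ER-labelled ribosomes, and the mRNAs of the small channel subunits were not among them: Sec61b was slightly lower and Sec61g did not pass the test. Among all 16221 genes tested, 29.1% were higher and 24.6% lower by the same rule, edgeR's quasi-likelihood test with a Benjamini-Hochberg adjusted p under 0.05. The median log2 ratio of the 10 genes was 1.72, against 0.00 over all genes tested. Levels are given as CPM after TMM scaling, so they are shares of the RNA of each fraction, and in bulk libraries fewer cells with an mRNA and less of it per cell cannot be told apart. Where groups are said below not to overlap, this describes the libraries of that gene. The share of all genes tested with such a separation is not given.

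Sec61a1, the pore subunit, had 448.5, 435.5 and 449.3 CPM in ER ribosome-bound libraries, 114.3, 108.9 and 116.1 in cytosol ribosome-bound, 155.9, 162.2 and 156.0 in ER whole-cell and 152.3, 158.0 and 151.5 in cytosol whole-cell libraries. Every ER ribosome-bound library was above every other, every cytosol ribosome-bound library was below both whole-cell groups, and the whole-cell groups overlapped. The log2 ratio of ER over cytosol ribosome-bound was 1.97 (SE 0.036, edgeR adjusted p = 1.2e-32), a 3.93-fold difference that exceeded those of 96.3% of genes.

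Sec61b had 69.6, 73.2 and 71.0 CPM in ER ribosome-bound libraries, 74.0, 79.3 and 75.9 in cytosol ribosome-bound, 71.5, 67.3 and 69.0 in ER whole-cell and 69.4, 69.2 and 68.7 in cytosol whole-cell libraries. All 12 values lie within a narrow band, with only the cytosol ribosome-bound libraries above the rest. The log2 ratio of ER over cytosol ribosome-bound was -0.10 (SE 0.042, 95% interval -0.18 to -0.01, edgeR adjusted p = 0.044), and it turned to 0.13 (edgeR adjusted p = 0.012) when libraries were scaled to 118 genes of cytosolic proteins and to 0.01 (edgeR adjusted p = 0.87) when reads of its near-identical copies were added. Sec61g had 89.2, 88.5 and 86.5 CPM in ER ribosome-bound libraries, 86.9, 86.2 and 83.5 in cytosol ribosome-bound, 89.7, 102.8 and 87.7 in ER whole-cell and 97.4, 90.0 and 92.3 in cytosol whole-cell libraries. Its ribosome-bound groups overlapped, with a log2 ratio of 0.04 (SE 0.046, 95% interval -0.05 to 0.14, edgeR adjusted p = 0.47), which under the cytosolic scaling was 0.27 (edgeR adjusted p = 6.3e-06).

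The counts of both small subunits are less certain than those of the other genes, because the genome holds close copies of their coding sequences and the handling of reads that align to several places is not given in the sources used here. Sec61b has 3 such copies, of which Gm10320 is 99.3% identical over 285 bases, and Sec61g has 12 besides a stretch within Zkscan1. The copies of Sec61g range from 90.0% (Gm12881) to 100.0% (Gm10177) identical, so not all of them are equally likely to take its reads. Gm10320 was counted with 91, 221 and 82 reads in ER ribosome-bound libraries, 1, 4 and 3 in cytosol ribosome-bound, 11, 6 and 7 in ER whole-cell and 4, 1 and 4 in cytosol whole-cell libraries. Its reads thus moved with the group, and the 3 copies together amounted to 5.52% to 12.2% of the Sec61b count in ER ribosome-bound libraries and 0.0517% to 0.195% in cytosol ribosome-bound libraries. Gene counts cannot tell whether such reads came from Sec61b, from Gm10320 or from a plasmid, and their part in the Sec61b values was not tested beyond adding them. The copies of Sec61g held 1.26% to 2.18% of its count in every group.

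Sec62 had 174.2, 184.4 and 190.1 CPM in ER ribosome-bound libraries, 61.3, 57.3 and 63.1 in cytosol ribosome-bound, 104.0, 102.5 and 97.1 in ER whole-cell and 99.9, 96.2 and 102.9 in cytosol whole-cell libraries. Sec63, its J-domain partner, had 83.7, 80.0 and 83.5 CPM in ER ribosome-bound, 29.2, 26.7 and 25.8 in cytosol ribosome-bound, 40.0, 42.6 and 40.5 in ER whole-cell and 38.7, 41.3 and 42.6 in cytosol whole-cell libraries. Both showed the pattern of Sec61a1, with no overlap between the ribosome-bound groups. Their log2 ratios of ER over cytosol ribosome-bound were nearly equal, 1.59 for Sec62 (SE 0.043, edgeR adjusted p = 1.2e-27) and 1.60 for Sec63 (SE 0.051, edgeR adjusted p = 2.4e-25).

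Of the TRAP mRNAs, Ssr1 (TRAP alpha) had 552.1, 553.9 and 557.9 CPM in ER ribosome-bound libraries, 116.6, 115.0 and 113.2 in cytosol ribosome-bound, 165.6, 171.3 and 167.0 in ER whole-cell and 162.9, 168.1 and 167.2 in cytosol whole-cell libraries. Its log2 ratio of 2.27 (SE 0.034, edgeR adjusted p = 1.5e-34) was the highest of the 10 and above that of 99.0% of genes. Ssr2 (TRAP beta) had the most reads of the 10 genes in every library, with 1154.7, 1170.8 and 1172.8 CPM in ER ribosome-bound, 269.8, 269.3 and 268.0 in cytosol ribosome-bound, 295.4, 304.1 and 294.4 in ER whole-cell and 313.1, 288.9 and 301.2 in cytosol whole-cell libraries. The log2 ratio of ER over cytosol ribosome-bound of Ssr2 was 2.12 (SE 0.034, edgeR adjusted p = 7.7e-34), again with no overlap.

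Ssr3 (TRAP gamma) had 448.7, 420.3 and 446.7 CPM in ER ribosome-bound libraries, 121.3, 122.2 and 123.2 in cytosol ribosome-bound, 199.6, 193.3 and 190.6 in ER whole-cell and 185.1, 192.8 and 202.3 in cytosol whole-cell libraries. Ssr4 (TRAP delta) had 108.0, 105.1 and 108.6 CPM in ER ribosome-bound, 37.7, 37.9 and 38.2 in cytosol ribosome-bound, 44.0, 43.3 and 44.3 in ER whole-cell and 43.8, 45.3 and 46.6 in cytosol whole-cell libraries. Tram1 had 136.5, 132.8 and 137.9 CPM in ER ribosome-bound libraries, 37.6, 39.2 and 36.8 in cytosol ribosome-bound, 65.1, 67.6 and 64.4 in ER whole-cell and 67.5, 63.0 and 66.0 in cytosol whole-cell libraries. In each of these 3 genes the ER ribosome-bound libraries were the highest and the cytosol ribosome-bound libraries the lowest, without overlap. The log2 ratios were 1.84 for Ssr3 (SE 0.038), 1.50 for Ssr4 (SE 0.042) and 1.84 for Tram1 (SE 0.043), with edgeR adjusted p of 3.0e-31, 5.8e-27 and 1.3e-29.

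**Figure D1:**
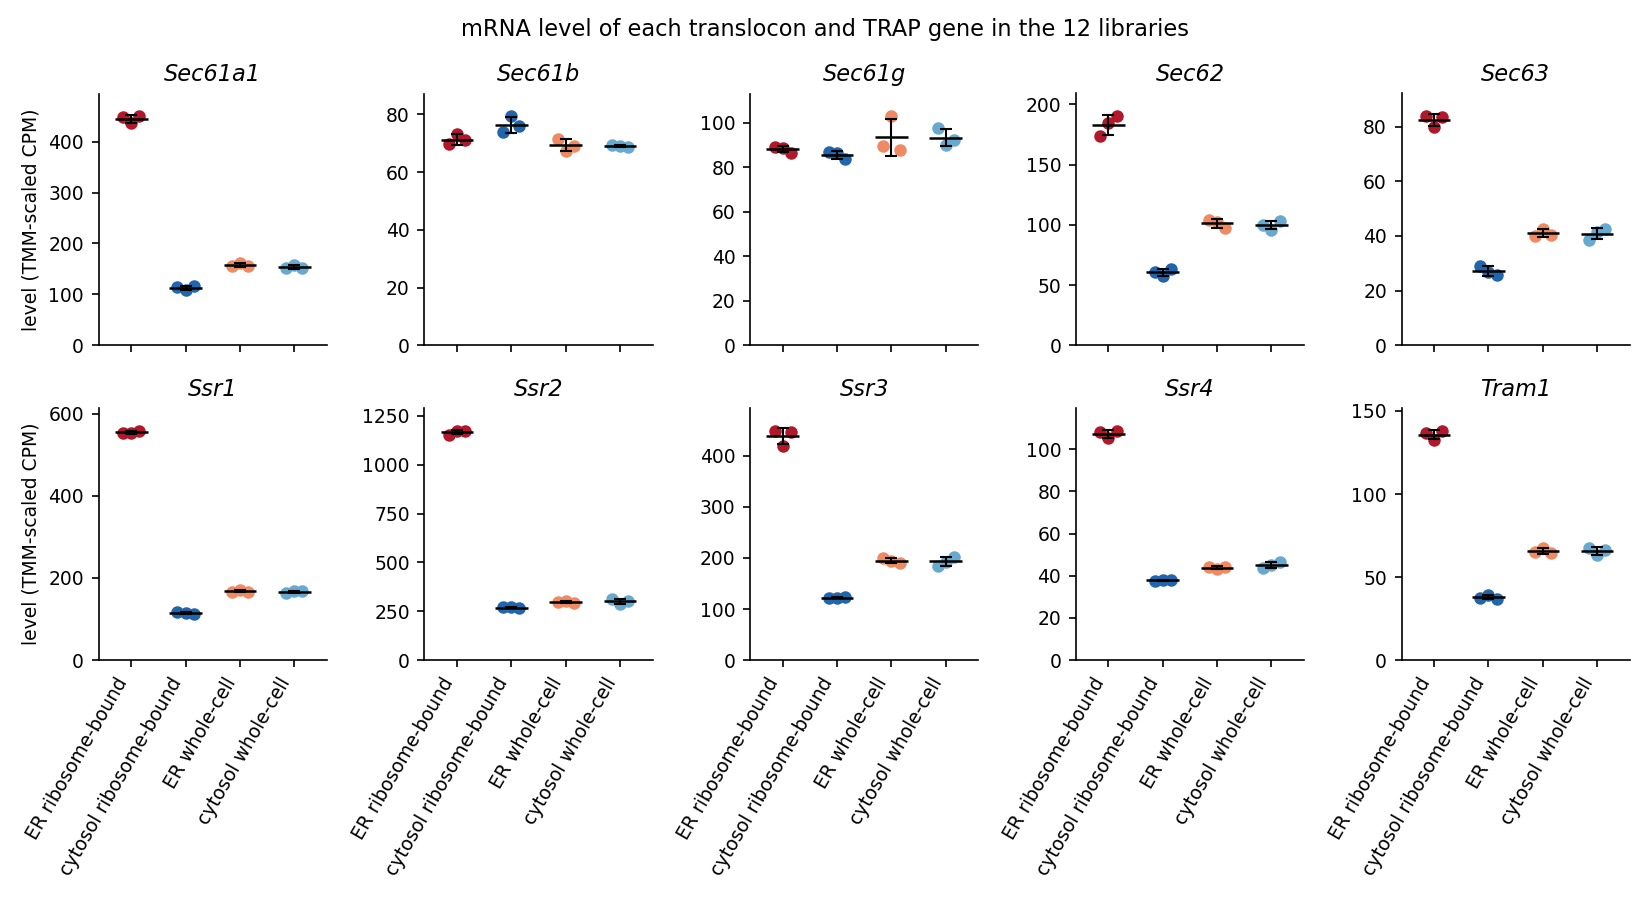
Level of each of the 10 mRNAs (TMM-scaled CPM, linear axis from 0, a scale of its own per gene) in the 4 groups, with 3 points for the libraries, a line for their mean and bars for the SD. For 8 genes the ER ribosome-bound points stand above all others and the cytosol ribosome-bound points below, whereas Sec61b stays between 67.3 and 79.3 CPM and Sec61g between 83.5 and 102.8 CPM. The share of all genes tested with such a separation is not given.

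Each ribosome-bound group was also set against the whole-cell RNA of the same targeting, which asks how the mRNAs on labelled ribosomes compare with the mRNAs of the lysate. On ER-labelled ribosomes the same 8 genes were higher than in ER whole-cell RNA, 1.81 to 3.91 times, with none lower, while 32.5% of all genes tested were higher and 30.6% lower. The log2 ratios were 1.97 for Ssr2 (SE 0.034), 1.72 for Ssr1 (SE 0.033), 1.49 for Sec61a1 (SE 0.035), 1.29 for Ssr4 (SE 0.042) and 1.17 for Ssr3 (SE 0.037). They were smaller for Tram1 at 1.05 (SE 0.041), Sec63 at 1.01 (SE 0.049) and Sec62 at 0.86 (SE 0.041). The highest edgeR adjusted p of these 8 was 1.5e-19. Sec61b had a log2 ratio of 0.04 (95% interval -0.04 to 0.13, edgeR adjusted p = 0.40) and Sec61g one of -0.08 (95% interval -0.18 to 0.01, edgeR adjusted p = 0.13), which under the cytosolic scaling were 0.28 (edgeR adjusted p = 4.9e-07) and 0.16 (edgeR adjusted p = 0.0026). With the reads of its copies added, Sec61b had a log2 ratio of 0.15 (edgeR adjusted p = 0.0050).

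On cytosol-labelled ribosomes the direction was the opposite one: 9 of the 10 genes were lower than in cytosol whole-cell RNA and Sec61b alone was higher, against 33.0% lower and 20.8% higher among all genes tested. Tram1 fell by 0.79 on the log2 scale (SE 0.045), Sec62 fell by 0.72 (SE 0.044), Ssr3 fell by 0.66 (SE 0.038), Sec63 fell by 0.58 (SE 0.054), Ssr1 fell by 0.53 (SE 0.034) and Sec61a1 fell by 0.44 (SE 0.036), each with an edgeR adjusted p of at most 1.9e-11. The decreases of Ssr4 and Ssr2 were small, with log2 ratios of -0.25 (SE 0.046, edgeR adjusted p = 1.3e-05) and -0.16 (SE 0.034, edgeR adjusted p = 1.1e-04), and that of Ssr2 was -0.08 (edgeR adjusted p = 0.060) without replicate 1 of cytosol whole-cell. Sec61b had a log2 ratio of 0.14 (SE 0.042, edgeR adjusted p = 0.0035) and passed the test under all 20 alternative settings. The call on Sec61g, with a log2 ratio of -0.13 (SE 0.046, edgeR adjusted p = 0.021), held under only 5 of the 20, with values between -0.14 and -0.04. The median of the 10 genes was -0.49, and that of all genes tested -0.05.

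**Figure D2:**
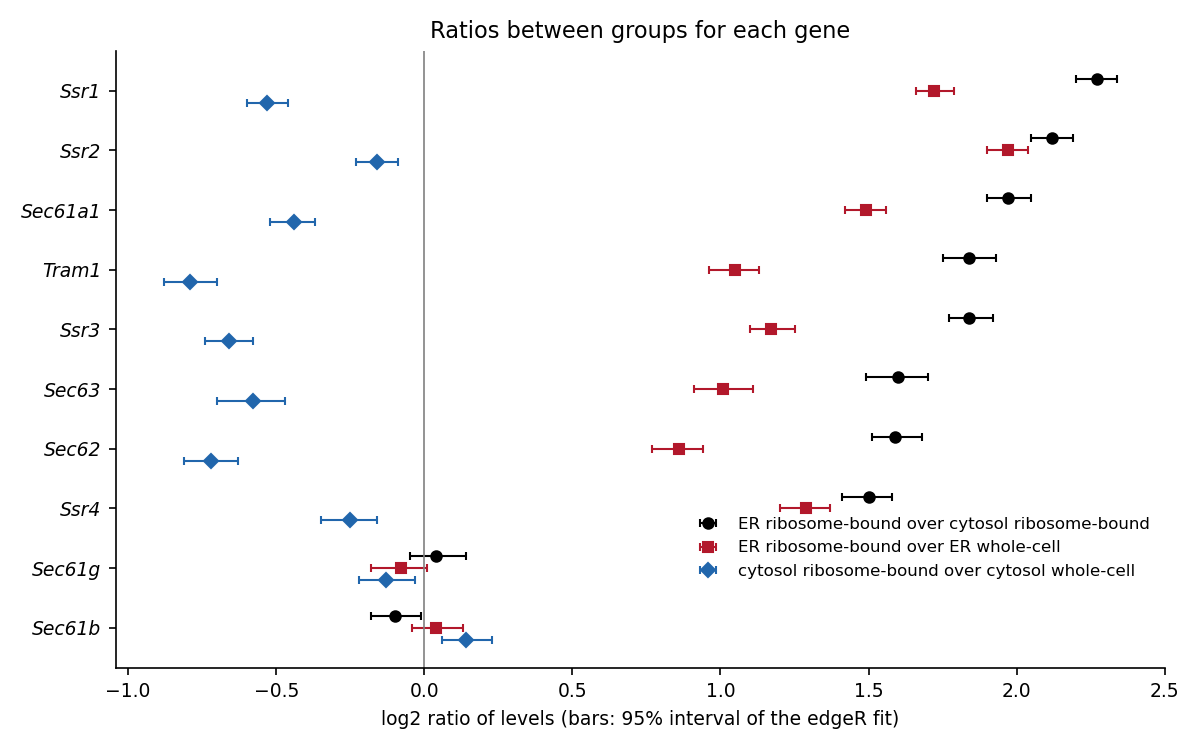
Log2 ratio of each gene between groups, with points for the edgeR estimate (circles: ER over cytosol ribosome-bound; squares: ER ribosome-bound over ER whole-cell; diamonds: cytosol ribosome-bound over cytosol whole-cell) and bars for the 95% interval. The upper 8 genes have circles between 1.50 and 2.27, squares between 0.86 and 1.97 and diamonds between -0.79 and -0.16, and all symbols of Sec61g and Sec61b lie within 0.14 of 0.

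Whether enrichment over whole-cell RNA differed with the site of labelling was tested in the same fit, as the log2 enrichment at the ER minus that in the cytosol. It was higher at the ER for the same 8 genes, by 1.54 (Ssr4, SE 0.062) to 2.25 (Ssr1, SE 0.048), and 24.8% of all genes tested were higher and 18.6% lower. For Sec61b the difference was -0.10 (95% interval -0.22 to 0.02, edgeR adjusted p = 0.17) and for Sec61g 0.04 (95% interval -0.09 to 0.18, edgeR adjusted p = 0.64). Under the cytosolic scaling the difference of Sec61g was 0.28 (edgeR adjusted p = 5.1e-04). Then 9 of the 10 genes were called higher, and the share of all genes called under that scaling is not given. The test of the difference shares its libraries with the ones above and is not independent of them.

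Whole-cell RNA shows whether placing ALIBi at the ER or in the cytosol went with other levels of these mRNAs in the cells. None of the 10 genes was called higher or lower in ER whole-cell than in cytosol whole-cell libraries, and of all genes tested 0% were called higher and 0% lower. Log2 ratios of the 10 lay between -0.04 (Ssr4) and 0.04 (Sec61a1), the widest 95% interval being that of Sec63, -0.10 to 0.11. At an unadjusted p under 0.05 edgeR counted 634 of all genes and 0 of the 10, and DESeq2 called 0 genes.

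Within a library, ratios between members do not depend on how libraries are scaled. For every read of Sec61a1 there were 0.160 reads of Sec61b in ER ribosome-bound libraries, 0.675 in cytosol ribosome-bound, 0.438 in ER whole-cell and 0.449 in cytosol whole-cell libraries, so the log2 ratio was 2.07 lower on ER-labelled than on cytosol-labelled ribosomes (-2.64 ± 0.061 against -0.57 ± 0.094, SD, n = 3 each). The Sec61g to Sec61a1 ratio was 0.198 in ER ribosome-bound, 0.756 in cytosol ribosome-bound, 0.589 in ER whole-cell and 0.605 in cytosol whole-cell libraries. Among the TRAP mRNAs, the ratio of Ssr4 to Ssr1 was 0.193 on ER-labelled and 0.330 on cytosol-labelled ribosomes, that of Ssr3 to Ssr1 was 0.790 on ER-labelled and 1.06 on cytosol-labelled ribosomes, and that of Ssr2 to Ssr1 was 2.10 on ER-labelled and 2.34 on cytosol-labelled ribosomes. Each of these 5 ratios was lower in all 3 ER ribosome-bound libraries than in all 3 cytosol ribosome-bound ones, with p = 0.100 in an exact two-sided permutation test, the smallest that 3 against 3 libraries allow, and an adjusted p of 0.120 over 6 pairs. These 5 have Sec61a1 or Ssr1 as the divisor. Their direction follows from the ER over cytosol ratios per gene given above, and they are not separate findings. The ratio of Sec62 to Sec63 was 2.22 on ER-labelled and 2.23 on cytosol-labelled ribosomes (exact permutation p = 0.900).

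As shares of the reads of all 10 genes, Sec61b and Sec61g together made up 4.87% ± 0.109 in ER ribosome-bound, 17.1% ± 0.375 in cytosol ribosome-bound and 13.2% in both groups of whole-cell libraries (SD, n = 3 per group). Ssr2 held 35.6% ± 0.385 of the reads on ER-labelled and 28.5% ± 0.100 on cytosol-labelled ribosomes, and Ssr1 held 17.0% ± 0.102 on ER-labelled and 12.2% ± 0.152 on cytosol-labelled ribosomes.

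**Figure D3:**
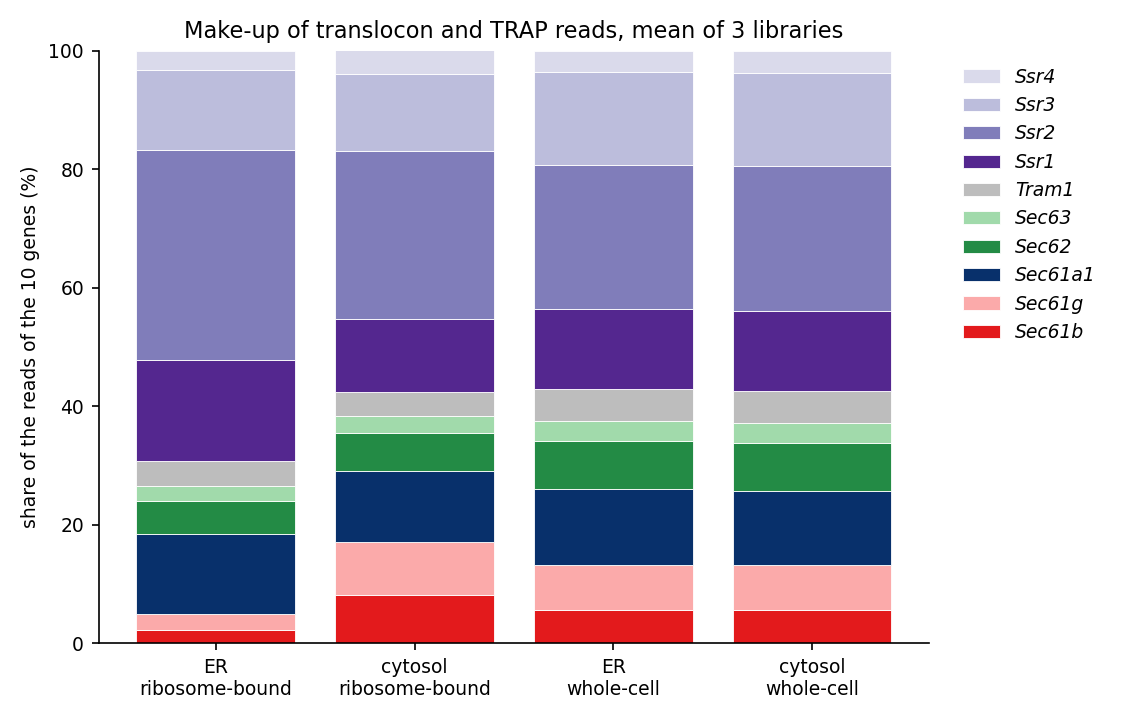
Share of the reads of the 10 genes (%) that fell on each gene, as the mean of 3 libraries per group, stacked to 100%. The red segments at the foot, Sec61b and Sec61g, add up to 4.87% in ER ribosome-bound libraries, 17.1% in cytosol ribosome-bound libraries and 13.2% in whole-cell libraries.

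Levels can be set beside each other between genes only per length, here as CPM per kb of the principal transcript. In ER whole-cell RNA, Ssr2 was the highest at 250.6 ± 4.50 CPM per kb, followed by Sec61b at 122.8 ± 3.76, Ssr3 at 65.8 ± 1.56 and Ssr4 at 57.4 ± 0.689 (SD, n = 3). Sec61g at 50.1 ± 4.40 and Sec61a1 at 49.8 ± 1.14 did not differ beyond their spread, and below them came Sec62 at 25.5 ± 0.915, Tram1 at 22.4 ± 0.564, Ssr1 at 18.0 ± 0.322 and Sec63 at 6.81 ± 0.231. On ER-labelled ribosomes Sec61a1 reached 140.1 ± 2.45 CPM per kb and passed Sec61b at 126.4 ± 3.26, whereas on cytosol-labelled ribosomes Sec61a1 had 35.6 ± 1.18 and Sec61b 135.4 ± 4.78. The order depends on the transcript taken: by the shortest coding transcript Sec61g had 207.5 CPM per kb in ER whole-cell RNA and Ssr1 104.3, and over all exons of the gene Sec61b had 54.5 and Ssr4 14.2, which put Ssr4 next to last. Ssr2 was first and Sec63 last by all 3 lengths.

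The position of the first hydrophobic segment was then set beside the ER over cytosol ratio for all tested genes whose coding sequence held such a segment. At the hydropathy cut of 1.6, 9241 tested genes with a coding sequence held none. Their median log2 ratio was -0.11 (quartiles -0.24 and 0.05), and 1135 of them were called higher at the ER. Genes with a segment were grouped by the number of codons that follow the first one, a property that no expression value entered. Of 276 tested genes with under 30 codons after it, the group of Sec61b and Sec61g, 34.1% were called higher at the ER, against 29.1% of all genes tested. The median log2 ratio of this group was 0.03 (quartiles -0.17 and 1.05). The median was 0.38 for 244 genes with 30 to under 60 codons, 0.65 for 285 genes with 60 to under 100 and 1.15 for 748 genes with 100 to under 200, the group of Ssr2, Ssr3, Sec62 and Ssr4, of which 66.0% were higher. It was 1.30 for 1386 genes with 200 to under 400 codons and 1.12 for 1962 genes with 400 or more. Within the group with under 30 codons, Sec61g at 0.04 thus lay near the median and Sec61b at -0.10 between the median and the lower quartile. The other 8 genes lay above the medians of their groups, 5 of them (Ssr1, Ssr2, Sec61a1, Tram1 and Ssr3) above the upper quartile. These medians depend on the hydropathy cut. At 1.4 they were -0.08, 0.13, 0.13, 0.45, 0.92 and 0.80 over the 6 groups in the same order, with no step from the second to the third, and at 1.8 they were 0.16, 0.76, 1.12, 1.41, 1.42 and 1.31. At 1.8 Ssr2 had no segment at all. At the cut of 1.6, genes were also grouped by where the first segment begins. The median was 1.54 for 1852 genes with a start in the first 30 residues, of which 1619 were called higher. It was 0.52 for 2779 genes with a later start (1655 higher). For 270 genes with a lone segment near the C-terminus it was 0.02 (90 higher). An early start also leaves more of the coding sequence after it, and these properties were not tested apart. The segments are strongly hydrophobic windows and not a count of membrane spans.

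**Figure D4:**
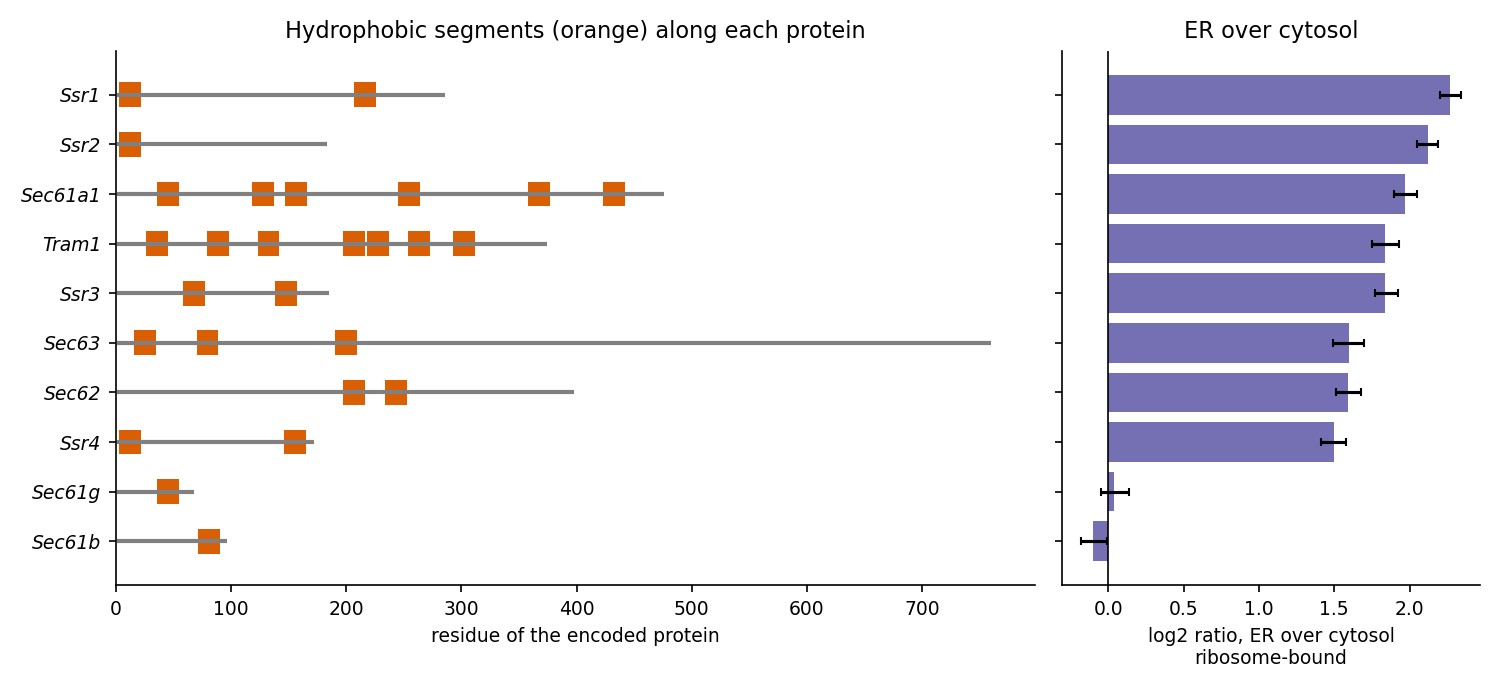
Left, the hydrophobic segments (orange, 19 residues each) along the 10 proteins, drawn to scale in residues and ordered by the ratio at right. Right, the log2 ratio of ER over cytosol ribosome-bound with its 95% interval: Sec61g and Sec61b, the shortest proteins with 68 and 96 residues and a lone segment near the end, are at 0.04 and -0.10, and the others between 1.50 and 2.27.

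**Figure D5:**
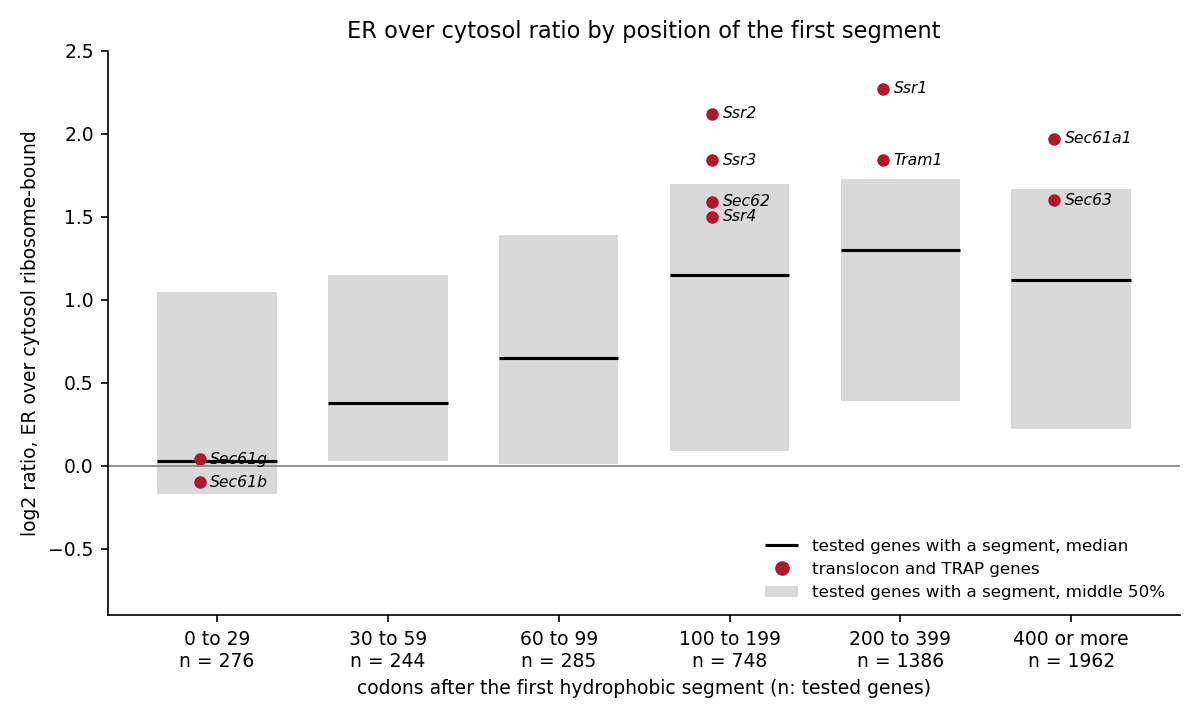
Log2 ratio of ER over cytosol ribosome-bound against the number of codons after the first hydrophobic segment, for tested genes with such a segment (black line: median; grey box: middle 50%; n below each box) and the 10 genes (red points). Medians go up over the first 5 groups, with values of 0.03, 0.38, 0.65, 1.15 and 1.30, and Sec61b and Sec61g fall in the first of them.

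Over the 10 genes, Spearman's rho of the ER over cytosol log2 ratio was 0.54 with the codons after the first segment. It was also 0.54 with transcript length, 0.45 with coding length and 0.65 with the mean whole-cell level. For the ER ribosome-bound over whole-cell ratio it was 0.37 with the codons after the segment and 0.18 with transcript length. With coding length it was 0.22 there, and with the whole-cell level 0.53. For the cytosol ribosome-bound over whole-cell ratio it was -0.71 with coding length and -0.62 with transcript length. It was -0.59 there with the codons after the segment and 0.05 with the whole-cell level. These are descriptions of 10 genes measured in the same libraries.

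The genes whose levels over the 12 libraries ran most like those of the channel subunits were taken by the smallest distance between centred log2 CPM, among 9611 genes of at least 10 CPM. For Sec61a1 they were Canx, Kdelr2, Por, Ptgfrn and Adam23, at distances of 0.13 to 0.17, with ER over cytosol log2 ratios of 1.90 to 2.00. For Sec61b they were Rnf220, Sltm, Trim41, Chtop and Ppp2r5a, at 0.11 to 0.12, with ratios of -0.14 to -0.09. For Sec61g they were Rdh13, Rpl7, Zbtb8a, Gabarap and Txndc17, at 0.11 to 0.16, with ratios of -0.00 to 0.10. Because these genes were chosen by their levels in the same 12 libraries, their like ratios follow from the choice and are not a separate finding.

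Other genes that work at the translocon were taken as a list of 21, and 19 of them were higher on ER-labelled than on cytosol-labelled ribosomes, 0 were lower and the median log2 ratio was 1.95. Of all genes tested, 29.1% were higher and 24.6% lower. All 5 signal peptidase genes, which encode the enzyme that removes signal sequences, were higher, from 1.61 for Spcs1 to 2.23 for Spcs3. So were all 7 genes of the multipass translocon, which helps to insert proteins with many spans, from 0.88 for Wdr83os to 2.18 for Tmco1, and all 4 luminal partners, from 1.52 for Dnajc1 to 2.30 for Sil1, the exchange factor of BiP. Of 5 accessory genes 3 were higher, up to 2.04 for Sec61a2, the second pore-subunit gene, while Serp1 with -0.08 (SE 0.044, edgeR adjusted p = 0.12) and Serp2 with 0.03 (SE 0.183, edgeR adjusted p = 0.90) did not pass the test. Serp1 encodes a small stress-associated ER protein with a membrane span near its C-terminus.

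Against whole-cell RNA, 19 of the 21 were higher on ER-labelled ribosomes and Serp1 was lower, with a log2 ratio of -0.15 (SE 0.044, edgeR adjusted p = 0.0038), a call that ended under the cytosolic scaling, where 0 of the 21 were lower. In that comparison 32.5% of all genes tested were higher and 30.6% lower. On cytosol-labelled ribosomes 15 of the 21 were lower than in whole-cell RNA and 1 was higher, Rab5if with 0.23 (SE 0.039, edgeR adjusted p = 4.2e-06). Here 33.0% of all genes tested were lower and 20.8% higher.

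Beside these, 11 of 11 oligosaccharyltransferase genes measured were higher on ER-labelled than on cytosol-labelled ribosomes, with a median log2 ratio of 1.92. Among all genes tested 29.1% were higher and 24.6% lower. Of 8 genes of the signal recognition particle and its receptor 3 were higher and 2 lower, with a median of -0.04. The 3 higher ones were the receptor genes Srpr (1.56) and Srprb (1.87) and the particle gene Srp72 (0.73). The other particle genes lay between -0.35 (Srp54a) and -0.01 (Srp9). Of 16 genes of tail-anchored proteins 0 were higher and 11 lower, with a median of -0.17, between -0.37 for Ptpn1 and 0.11 for Hmox1. The ratios of Sec61b and Sec61g, -0.10 and 0.04, lie inside that last range, and those of the other 8 genes, 1.50 to 2.27, lie outside it and inside the oligosaccharyltransferase range of 0.27 (Ost4) to 2.67 (Ddost). The lists were set side by side by their counts and medians only, and no test of a difference between them was made. Calls on ratios as small as those of the tail-anchored list depend on the scaling. Under the cytosolic scaling the median log2 ratio of all genes in this comparison was 0.22, against 0.00, and Sec61b was at 0.13. The 11 lower calls among tail-anchored genes are given for TMM scaling only, and whether they hold under the cytosolic scaling was not tested.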

How the data were processed

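The authors deposited 1 table per library with raw HTSeq read counts for each Ensembl gene. Tools named in the submitters' processing notes are STAR 2.7.9a, HTSeq 0.11.2 and DESeq2 (no version), with GRCm39 as genome. Annotation release, strand setting and the treatment of reads that align to several places were not stated in the sources used. The 5 class totals of reads outside genes (8.75% to 12.5% of reads) stayed out of library sizes and tests. Names, lengths and coding sequences came from GENCODE M21, which named 52135 identifiers. The other 3281 held 0.399% of counts. Its build differs, so no coordinates are given. Antisense genes overlap exons of Sec61a1, Sec62, Sec63 and Ssr2, and their counts cannot be separated without strand.

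All 4 groups were fitted together in edgeR 4.0.16 (R 4.3.3) with filterByExpr, TMM and glmQLFit/glmQLFTest, p-values being adjusted over 16221 genes by Benjamini-Hochberg at 0.05. The biological coefficient of variation was 3.61%. Simulated counts with known changes were used to test the fit. These changes were in few genes, balanced in direction and only in ER ribosome-bound libraries. They were unlike the wide shifts in the data, so the simulation does not bear on the choice of scaling. Alternatives included DESeq2 1.42.0, other scalings and leaving out each library. Intervals cover counting and replicate spread, not amplification by PCR. Members, lists, the naming rule (all 10 genes, the extremes of each partner list, the 5 nearest patterns of each channel subunit) and the comparison with codons after a segment were chosen with earlier results of these data known. Copies, hydropathy cuts and transcript lengths were added as alternatives after the data were seen. No amino acid sequence is printed.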

Additional observations from a re-analysis of the deposited data

Results flagged for a closer look

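For 8 of the 10 genes the enrichment over whole-cell RNA differed between ER-labelled and cytosol-labelled ribosomes in a test of that difference itself (edgeR's quasi-likelihood test, Benjamini-Hochberg adjusted over 16221 genes, 3 libraries per group). On the log2 scale, the enrichment at the ER minus that in the cytosol was 1.94 for Sec61a1, 1.57 for Sec62, 1.59 for Sec63, 2.25 for Ssr1, 2.13 for Ssr2, 1.83 for Ssr3, 1.54 for Ssr4 and 1.84 for Tram1. The highest adjusted p of the 8 was 3.6e-20. The difference was estimated per gene from the 4 groups and has no value per library. The same test called 24.8% of all genes higher, so such a difference was common in these libraries.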

How the results depend on the processing

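The 8 genes called higher on ER-labelled than on cytosol-labelled ribosomes kept that call under all 20 alternative settings, with log2 ratios between 1.43 (Ssr4) and 2.49 (Ssr1). The calls that changed were those of Sec61b, Sec61g and Ssr2. Scaling to 118 genes of cytosolic proteins moved the median log2 ratio of all genes to 0.22 (ER over cytosol ribosome-bound), 0.26 (ER ribosome-bound over ER whole-cell) and 0.24 (difference of enrichments, ER minus cytosol). It turned Sec61b to 0.13 in the first and Sec61g to 0.16 in the second comparison. All 10 members were then called higher in the first and in the second, so 0 were lower in the first. The share of all genes called under this scaling is not given, so these counts have no background beside them. The scaling left 0 partner genes (Serp1 without the scaling) lower in the second. It also brought Sec61g past the test in the difference of enrichments (0.28, edgeR adjusted p = 5.1e-04). In the first comparison 0 members were lower when only the compared groups were fitted (Sec61b adjusted p = 0.055), with the replicate block (adjusted p = 0.052) and with the copies added, where Sec61b was at 0.01. There, 1 partner gene was lower with DESeq2, with its size factors, without mitochondrially encoded genes and with no filter. On cytosol-labelled ribosomes 2 partner genes were higher with DESeq2 size factors, without mitochondrially encoded genes, with no filter and with only the compared groups. Without mitochondrially encoded genes, 1 member (Sec61b, -0.15, adjusted p = 0.033) had a lower enrichment at the ER than in the cytosol. Leaving out 1 library at a time gave 0 to 1 members lower in the first comparison (0 without replicate 3 of cytosol ribosome-bound), in the second (1, Sec61g, without replicate 3 of ER whole-cell) and in the difference of enrichments, 0 to 1 partner genes lower in the first and 1 to 2 higher on cytosol-labelled ribosomes, and the difference in the log2 Sec62 to Sec63 ratio, -0.00, went from -0.05 to 0.06 and was 0.04 without replicate 1 of ER ribosome-bound. The cause was not tested. Whole-cell RNA came from the same lysates, but the labels do not say that a number marks a lysate, and same-numbered libraries of a targeting correlated between -0.01 and 0.26 in their deviations. Of 6 ribosome-bound libraries, 4 correlated best with the whole-cell library of their own number. Libraries of a targeting with different numbers correlated between -0.26 and 0.06. The replicate block changed no other member call. That block gave each replicate number an effect shared by ER and cytosol libraries, so it could not test pairing within a targeting. Counts of the 10 genes lay between 689 and 29459 per library. The 3 replicates per group and copies of Sec61b and Sec61g limit what small ratios can show.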
